A study of Mus spretus with 19 samples.

Results

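Collagens and the small leucine-rich proteoglycans that coat collagen fibrils were followed in the liver of the Algerian mouse, Mus spretus, a wild mouse of the western Mediterranean. The genes were chosen by name: every gene spot of the array named as a collagen chain (Col, a number, a, a number), together with Lum, Dcn, Bgn, Fmod, Ogn, Prelp and Aspn. The array held 90 probes for 47 such names. Of these, 37 genes had a probe well above background on 3 or more arrays of at least 1 site and were tested among 16346 genes. The brightest such probe stood for a gene.

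The arrays came from 5 sites of south-western Spain: the Santa Olalla lagoon (SOL), labelled unpolluted, and 4 sites labelled polluted, which were the phosphogypsum stacks (PS) and the lower (DR1), medium (DR4) and upper (DR6) course of the Domingo Rubio stream. Each site is 1 pool of liver RNA from 9 male mice, whose genotype and age the labels do not give, and no site received a treatment. Each pool was labelled and hybridised 4 times, and 3 of those arrays were at hand for DR6. The repeats are technical, so p-values over arrays measure the spread of labelling and hybridisation and not that between mice, and since each site had a slide and a scan of its own, site and slide cannot be told apart.

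Collagens are triple helices of 3 chains that are secreted, trimmed and cross-linked outside the cell. Fibrillar chains build the load-bearing fibrils, type IV chains the meshwork of basement membranes, type VI chains beaded filaments, and type IX chains sit on the surface of fibrils, best known from cartilage. Leucine-rich proteoglycans such as lumican and decorin bind fibrils and set their spacing and width. In liver, hepatic stellate cells and portal fibroblasts are the main source of the fibrillar chains, whose accumulation is the hallmark of fibrosis.

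Below are the first 30 bases of the 60-base probes behind 6 genes on which the results turn, as the DR1 array files give them for the house mouse, with mm8 coordinates from the SOL files. They are shown because each of these genes was read through 1 probe, and no exon or UTR annotation was used here. No run longer than 10 bases was shared by the probes of 2 of the 37 genes (the run was in Col11a1 and Col15a1).
Col1a1 (chr11:94767851-94767910, plus strand): ttttcctttgcattcacctttcaaacttag
Col3a1 (chr1:45293290-45293349, plus strand): ataagccaaactctctgaaaccccagcaaa
Lum (chr10:97002264-97002323, plus strand): taagcatttgcacggttacttagtgaaact
Col9a2 (chr4:120552728-120552787, plus strand): aggggggactgaggcttctggtggtcctta
Col5a3 (chr9:20520550-20520609, minus strand): tctgtggtctatttaatttgcttccttctg
Col6a3 (chr1:92597492-92597551, minus strand): atggtcccagttttctggattagacttcga

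A level is given throughout as the log2 of a probe's processed signal relative to the 75th percentile of its array, which lay between 99.5 and 285.2 intensity units. Between 52.0% and 61.5% of spots were well above background on an array, and arrays of 1 site correlated at 0.981 to 0.997 over probes against 0.954 to 0.984 for arrays of different sites. Of the 37 genes, 26 were well above background on all 19 arrays and 0 were saturated on any. The other 11 passed the filter while dim on some arrays, so a gene among them that passed through 1 site had to differ from the rest. The other 10 names (Aspn, Col4a3, Col8a2, Col10a1, Col12a1, Col19a1, Col20a1, Col22a1, Col23a1 and Col28a1) did not pass, and of these Col22a1 reached the most arrays above background, 6 of 19.

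A small set of matrix genes was higher at stream sites than at SOL. The fibrillar chain Col1a1 and the proteoglycan Lum were higher at the lower and upper stream sites, the fibrillar chain Col3a1 at the lower, and the fibril-surface chain Col9a2 at the upper. The stacks were low in Col6a3, and at least 1.74-fold lower than SOL in Col17a1, a bound short of 2-fold. A gene was called where limma's adjusted p was under 0.05 and the difference at least 2-fold. In that sense 15 of the 37 genes were called in 1 or more of the 10 pairs of sites, beside 24.3% of all genes tested, and 12 were called in 1 or more comparisons with SOL, beside 17.3% of all genes.

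Against SOL, DR1 had 3 genes higher (3.53% of all genes were) and 1 lower (2.55%), where 6.08% of all genes were called either way. DR6 had 7 higher (4.67% of all genes) and 1 lower (2.28%), beside 6.95% either way. Col4a5 and Col9a1, among the 7 higher at DR6, passed the filter only through stream sites, DR6 among them, which favours such calls. Likewise Col24a1, the lower gene at DR1, passed through SOL and DR4 alone. PS had 0 higher (2.23% of all genes) and 3 lower (2.18%), beside 4.42% either way. At DR4, 0 of the 37 were called, while 10.5% of all genes were (5.43% higher and 5.1% lower), the highest share of the 4 comparisons with SOL. At an adjusted p under 0.05 with no fold limit, 18 of the 37 genes differed between DR4 and SOL, beside 54.9% of all genes. By that rule 17 differed at PS (32.8% of all genes), 17 at DR1 (47.7%) and 16 at DR6 (43.9%). The median difference over the 37 genes was -0.15 at PS, 0.24 at DR1, -0.14 at DR4 and 0.17 at DR6, and over all genes tested it was -0.01, 0.01, -0.05 and 0.00.

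Against PS, DR1 had 7 of the 37 genes higher (3.72% of all genes) and 0 lower (2.64%), beside 6.36% either way. DR6 had 10 higher (4.79% of all genes) and 0 lower (2.51%), beside 7.3% either way. DR4 had 3 higher (4.64%) and 0 lower (4.32%), beside 8.96%. Col9a1 is among the higher genes at each stream site, and Col4a5 at DR6. Both passed the filter through stream sites alone, which favours such calls. Col24a1, higher at DR4, passed through SOL and DR4 alone. The medians over the 37 genes were 0.42 for DR1 and 0.46 for DR6. Within the stream, DR4 had 2 higher (2.1% of all genes) and 2 lower (3.05%) than DR1, beside 5.14% either way. DR6 had 2 higher (4.24%) and 2 lower (3.26%) than DR1, beside 7.5%, and 2 higher (3.77%) and 0 lower (2.39%) than DR4, beside 6.16%. The comparisons share arrays: the 4 SOL arrays enter each comparison with SOL, and the 4 PS arrays each comparison with PS.

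**Figure D1:**
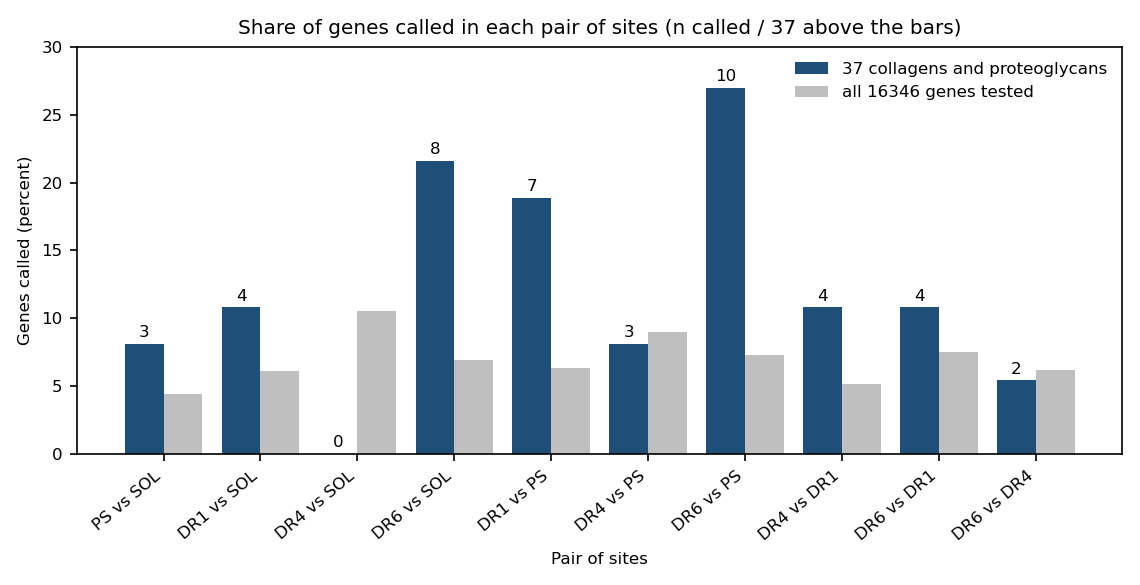
Percent of genes called (vertical axis) in each of the 10 pairs of sites, for the 37 collagens and proteoglycans (dark bars, number called above each) and for all 16346 genes tested (grey bars). The dark bar stands above the grey one for DR6 vs PS (10 genes), DR6 vs SOL (8) and DR1 vs PS (7), and is at 0 for DR4 vs SOL. Both DR6 counts named include Col4a5 and Col9a1, and the DR1 vs PS count includes Col9a1. These genes passed the filter only through stream sites where they were high, which favours such calls.

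Single arrays moved some of these counts. Without SOL replicate 2, the PS count was 5 instead of 3, and without DR1 replicate 3 the DR1 count against SOL was 7 instead of 4. Without DR6 replicate 1 or without DR6 replicate 2, the DR6 count against SOL was 5 instead of 8. The DR4 count against SOL was 2 without DR4 replicate 1, and 1 without DR4 replicate 2, DR4 replicate 3, SOL replicate 1, SOL replicate 4 or DR1 replicate 1. DR4 against DR1 gave 2 without DR1 replicate 4 or DR4 replicate 1, and DR6 against DR4 gave 1 without DR4 replicate 4, DR6 replicate 2 or DR6 replicate 3. Scaling each array to its median instead of its 75th percentile moved the median of all genes between DR6 and PS by -0.17. Under that scaling the share of higher genes among all calls went from 65.6% to 47.4% for DR6 vs PS, from 67.2% to 55.8% for DR6 vs SOL, from 56.5% to 44.6% for DR6 vs DR1, from 61.3% to 50.8% for DR6 vs DR4 and from 58.5% to 48.4% for DR1 vs PS. The collagens and proteoglycans then had 7 higher and 1 lower in DR6 vs PS, 5 and 1 in DR6 vs SOL, and 6 and 1 in DR1 vs PS, the lower gene against PS being Col2a1. Quantile scaling gave 54.4% of all calls higher for DR6 vs PS, with 8 of the 37 higher and 0 lower. After normexp correction of the raw signals, which adds 50 intensity units to every spot and so shrinks the differences of dim probes, 2 of the 15 called differences from SOL were still called with 75th percentile scaling (Col9a2 and Col5a3 at DR6) and 1 with quantile scaling (Col9a2). With 75th percentile scaling after normexp the share of higher genes among all calls also moved, for example from 51.6% to 25.4% for DR4 vs SOL and from 50.6% to 38.2% for PS vs SOL.

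Of the 11 fibrillar collagens, 2 were called higher than at SOL at DR1 (Col1a1 and Col3a1) and 1 lower (Col24a1). At DR6, 2 were called higher (Col1a1 and Col11a2) and 1 lower (Col5a3), and 0 were called at PS and DR4. The share called was 27.3% at DR1 and at DR6, beside 6.08% and 6.95% of all genes. Col1a1, the major chain of type I collagen, measured -1.74, -1.42, -1.71 and -1.79 at SOL and -1.65, -1.68, -1.73 and -1.72 at PS. It measured -0.59, -0.13, -0.58 and -0.65 at DR1, -0.63, -0.85, -0.84 and -0.89 at DR4, and -0.40, -0.57 and -0.77 at DR6. Every stream array lay above every SOL and PS array. Col1a1 was higher than at SOL by 1.18 ± 0.11 (log2, SE) at DR1 (adjusted p = 2.81e-07, limma) and by 1.08 ± 0.12 at DR6 (adjusted p = 2.12e-06), that is 2.26-fold and 2.12-fold. At DR4 the difference was 0.86 ± 0.11 (adjusted p = 5.45e-06), short of 2-fold. In the order DR1, DR6, DR4, SOL and PS, the step of 0.86 from DR4 to SOL was past the adjusted p of 0.05, and the other steps between neighbours were not. The DR6 call was lost without DR6 replicate 1 and with median scaling. The probe is printed on each array in 10 spots, whose SD within an array was 0.06 to 0.19, while the other 2 Col1a1 probes were above background on 1 and 0 of the 19 arrays.

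Col1a2, the partner chain of type I collagen, had smaller differences and was not called in any pair. Its site means were -0.17 at SOL, -0.37 at PS, 0.11 at DR1, 0.22 at DR4 and 0.45 at DR6. All 11 stream arrays again lay above the 8 SOL and PS arrays, but the differences from SOL of 0.28, 0.39 and 0.61 at DR1, DR4 and DR6 did not reach 2-fold (adjusted p = 0.0105, 0.000759 and 3.28e-05, limma).

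Col3a1, the single chain of type III collagen, which forms the reticular fibres of liver, measured 0.17, 0.22, 0.30 and 0.28 at SOL and -0.13, -0.23, -0.23 and -0.04 at PS. Along the stream it measured 1.33, 1.68, 1.62 and 1.63 at DR1, 0.71, 0.66, 0.61 and 0.65 at DR4, and 0.72, 0.93 and 1.06 at DR6. The 5 sites did not overlap, though the lowest DR6 array (0.72) was just above the highest of DR4 (0.71). Col3a1 was higher than at SOL by 1.32 ± 0.08 at DR1 (2.5-fold, adjusted p = 1.66e-09, limma) and by 0.66 ± 0.09 at DR6 (adjusted p = 1.32e-05), the latter short of 2-fold. Against PS the differences were 1.72 ± 0.08 at DR1 and 1.06 ± 0.09 at DR6 (3.3-fold and 2.09-fold). Each step of the order DR1, DR6, DR4, SOL, PS passed the adjusted p of 0.05. The DR6 call against PS was lost without DR6 replicate 3 and with median scaling. The other 2 Col3a1 probes were above background on 0 of 19 arrays.

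**Figure D2:**
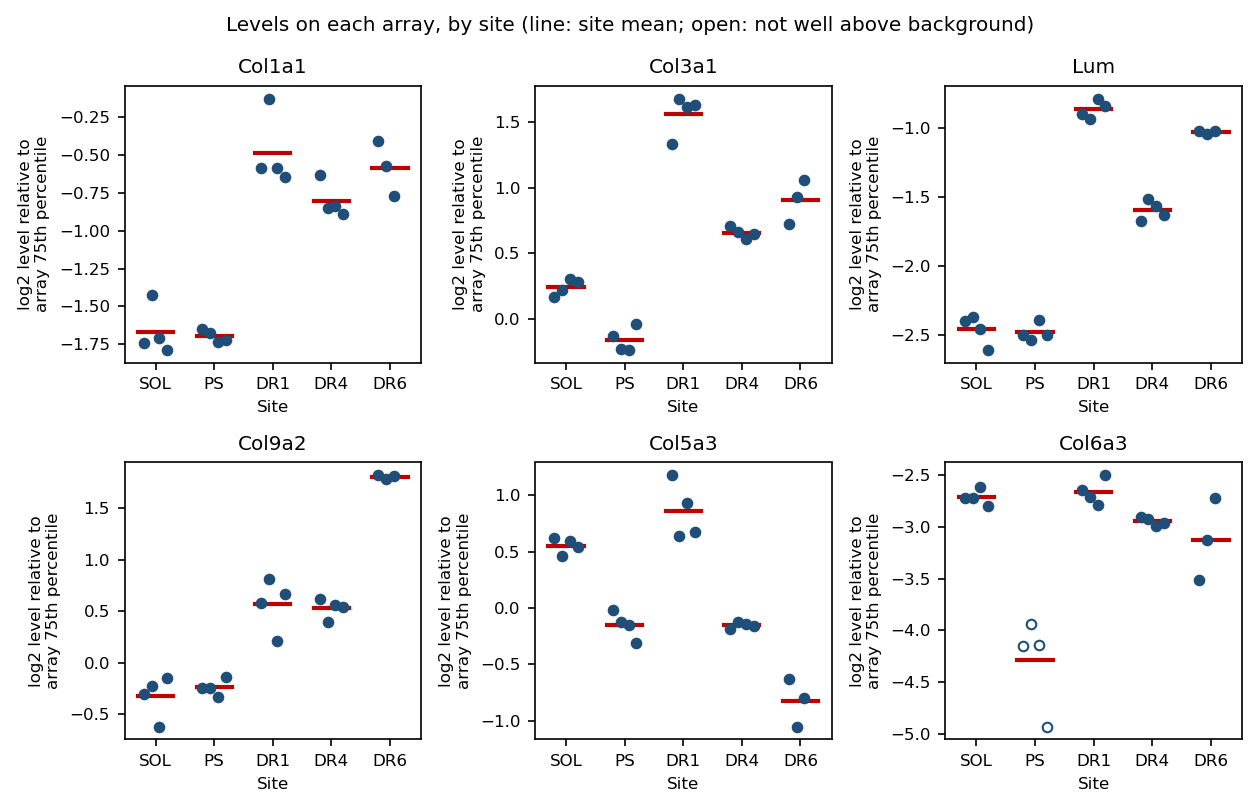
Level of 6 genes on each array (vertical axis, log2 relative to the array's 75th percentile) at the 5 sites (horizontal axis); points are arrays, filled where well above background and open where not, and the line is the site mean. The stream sites DR1, DR4 and DR6 lie above SOL and PS for Col1a1, Col3a1, Lum and Col9a2, while Col5a3 is lowest at DR6 and Col6a3 is below background at PS.

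The type V and XI chains, which nucleate and limit fibrils, gave differences of both signs. Col5a3 measured 0.62, 0.46, 0.59 and 0.54 at SOL, -0.02, -0.12, -0.15 and -0.31 at PS, 1.18, 0.64, 0.94 and 0.68 at DR1, -0.19, -0.13, -0.15 and -0.16 at DR4, and -0.63, -1.05 and -0.80 at DR6. It was highest at DR1 and lowest at DR6, with no overlap of DR6 with any other site. Col5a3 fell by 1.38 ± 0.12 from SOL to DR6 (2.60-fold, adjusted p = 8.50e-08, limma), and was lower at DR6 than at DR1 by 3.22-fold. Its difference of 1.01 between DR1 and PS was lost as a call with median scaling and without PS replicate 4, DR1 replicate 1 or DR1 replicate 3. The difference of -1.01 between DR4 and DR1 was lost without DR1 replicate 1 or DR1 replicate 3. Col5a1 and Col5a2, its partner chains, were not called: against SOL, Col5a1 differed by -0.83 at PS and -0.67 at DR4 (adjusted p = 6.08e-09 and 2.87e-08), and Col5a2 by -0.70 at PS (adjusted p = 0.0122), where it was above background on 0 of 4 arrays. The Col5a2 and Col3a1 probes lie 28032 bases apart on chromosome 1 of mm8, on opposite strands.

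Col11a2, a type XI chain, measured -3.15, -3.34, -3.77 and -3.73 at SOL and -3.52, -3.62, -3.92 and -4.37 at PS, against -3.60, -2.47, -3.64 and -2.80 at DR1, -2.81, -2.77, -3.47 and -3.08 at DR4, and -2.22, -2.30 and -2.78 at DR6. The DR6 arrays all lay above those of SOL and PS, and DR1 overlapped SOL. The difference of 1.06 ± 0.29 between DR6 and SOL (adjusted p = 0.00657, limma) was lost without SOL replicate 3, SOL replicate 4, DR6 replicate 1 or DR6 replicate 2, and with median scaling, quantile scaling or the mean of the gene's probes. Against PS it was 1.43 ± 0.29 (adjusted p = 0.000743). The other type XI chain measured, Col11a1, differed from SOL by -0.40 to 0.35 and was not called in any pair.

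Col27a1, a fibrillar chain of growing cartilage and other tissues, measured -2.94, -2.73, -3.11 and -3.46 at SOL and -3.39, -3.47, -3.43 and -3.80 at PS. It measured -2.18, -1.76, -2.33 and -2.08 at DR1, -2.47, -2.90, -2.71 and -2.86 at DR4, and -3.49, -3.47 and -2.999 at DR6. DR1 was higher than each other site with no overlap. Col27a1 was higher at DR1 than at PS by 1.44 ± 0.16 (2.71-fold, adjusted p = 2.15e-06, limma) and than at DR6 by 2.35-fold, and its difference from SOL was 0.97 ± 0.16 (adjusted p = 0.000128). The second Col27a1 probe gave 1.36 between DR1 and PS, while its difference between DR6 and DR1 was -0.89, short of 2-fold, so that call was lost with it.

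Col24a1, a fibrillar chain described in developing bone, was dim and variable. It measured -2.37, -4.32, -3.64 and -3.03 at SOL, -4.51, -3.86, -4.77 and -4.55 at PS, -3.80, -4.77, -3.98 and -5.77 at DR1, -2.49, -3.36, -3.53 and -3.85 at DR4, and -3.31, -3.49 and -3.90 at DR6. It was above background on 1 of 4 arrays at PS and 2 of 4 at DR1, and SOL overlapped both. Col24a1 passed the filter through SOL and DR4 alone, which favours higher values there. Its call at DR1 against SOL (-1.24 ± 0.44, adjusted p = 0.0281, limma) was lost without SOL replicate 1, SOL replicate 4, DR1 replicate 2 or DR1 replicate 4, and with only the 2 sites in the fit. Its call at DR4 against DR1 (1.27 ± 0.44) was lost without DR1 replicate 2, DR1 replicate 4 or DR4 replicate 1, and that at DR4 against PS (1.12 ± 0.44) without any 1 of PS replicates 1, 3 and 4 and DR4 replicates 1, 2 and 3. The former was also lost with only the 2 sites in the fit, and the latter with median scaling, quantile scaling or no filter on dim probes.

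Type IX collagen had the largest difference from SOL among the 37 genes. Col9a2 measured -0.30, -0.22, -0.62 and -0.15 at SOL and -0.24, -0.24, -0.33 and -0.14 at PS. It measured 0.58, 0.81, 0.21 and 0.67 at DR1, 0.62, 0.40, 0.56 and 0.55 at DR4, and 1.82, 1.79 and 1.81 at DR6. All 11 stream arrays lay above the 8 others, and the 3 DR6 arrays above the other stream arrays. Col9a2 was 4.38-fold higher at DR6 than at SOL (2.13 ± 0.12, adjusted p = 6.33e-10, limma) and 2.36-fold and 2.42-fold higher than at DR1 and DR4. At DR1 and DR4 it differed from SOL by 0.89 and 0.85 ± 0.11 (adjusted p = 6.80e-06 and 6.51e-06), short of 2-fold. The call at DR6 against SOL held under each of the 30 other settings and left-out arrays run, with differences of 1.59 to 2.19.

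Col9a1 measured -4.11, -3.95, -4.70 and -4.67 at SOL, -4.98, -5.77, -6.11 and -5.88 at PS, -3.29, -3.08, -3.78 and -3.41 at DR1, -3.43, -3.88, -4.23 and -4.47 at DR4, and -3.36, -2.66 and -3.38 at DR6. The PS arrays were the lowest and did not overlap another site, and the DR1 and DR6 arrays lay above those of SOL. Col9a1 was well above background on 0 of 4 PS arrays and 1 of 4 SOL arrays. It thus passed the filter through the stream sites alone, which favours higher values there, and its calls are counted above with that limit. Although PS against SOL passed the test and is counted among the 3 lower genes at PS (adjusted p = 0.00124, limma), no fold could be stated for that pair, since the SOL mean was itself not above the dimmest measurable signal of the PS arrays. Col9a1 was higher at DR6 than at SOL by 1.22 ± 0.30 (adjusted p = 0.00305), a call lost without DR6 replicate 2. Given the dim PS arrays, Col9a1 was at least 2.29-fold higher at DR6, 1.91-fold at DR1 and 1.25-fold at DR4 than at PS. After normexp correction with 75th percentile scaling the difference between DR1 and PS was -0.01 (adjusted p = 0.993). In such bounds the dim arrays are set at the higher of their own signal and the dimmest signal well above background on the same array.

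Col9a3, the third chain, was above background on 0 SOL, 1 PS, 3 DR1, 1 DR4 and 2 DR6 arrays. It thus passed the filter through DR1 alone, which favours a higher value there than at the other sites, and its call between DR4 and DR1 is counted above with that limit. It was lower at DR4 than at DR1 by 1.11 ± 0.38 and higher at DR6 than at DR4 by 1.27 ± 0.41 (adjusted p = 0.0234 and 0.0180, limma). The first call was lost without DR1 replicate 4, DR4 replicate 1 or DR4 replicate 4, and with only the 2 sites in the fit. The second was lost without DR4 replicate 1, DR4 replicate 4, DR6 replicate 2 or DR6 replicate 3. After normexp correction with 75th percentile scaling both differences changed sign (to 0.37 and -0.11, adjusted p = 0.383 and 0.902), so the direction of Col9a3 between these sites was not settled. Of the other fibril-associated chains, Col14a1 differed from SOL by 0.01 to 0.32 and Col16a1 by -0.51 to 0.24, and neither was called in any pair.

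The chains of basement membranes and networks showed few calls. Col4a1 and Col4a2, the paired main chains of basement membranes, whose probes lie 248994 bases apart on chromosome 8 of mm8, were not called in any comparison with SOL: Col4a1 differed by -0.26 to 0.00 and Col4a2 by -0.77 at DR1 (adjusted p = 1.83e-08, limma) to -0.14 at DR4. Their second probes, above background on all arrays, read otherwise at DR1. The second Col4a2 probe gave -1.13 there, past 2-fold (adjusted p = 7.25e-08, limma over all kept probes), and the second Col4a1 probe gave 0.37, opposite in sign to the -0.26 of the probe used (adjusted p = 0.0318). Col4a4 differed by -0.56 to -0.12 and Col8a1, a chain of vessel-wall networks, by -0.35 to 0.37. Col4a6 differed by 1.00 ± 0.27 at DR4 (adjusted p = 0.00464), just short of 2-fold, and was called with median or quantile scaling (differences of 1.01 and 1) and without SOL replicate 1 or any 1 of DR4 replicates 1, 2 and 3.

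Col4a5, the partner of Col4a6 and the chain mutated in X-linked Alport syndrome, measured -4.37, -6.07, -4.87 and -4.15 at SOL, -5.18, -4.76, -4.47 and -4.996 at PS, -3.41, -5.89, -6.43 and -6.07 at DR1, -4.49, -3.63, -3.21 and -3.29 at DR4, and -3.50, -3.29 and -3.04 at DR6. It was above background on 1 SOL, 0 PS and 1 DR1 array, against 3 of 4 at DR4 and 3 of 3 at DR6. Col4a5 thus passed the filter through DR4 and DR6 alone, which favours higher values there, and its calls are counted above with that limit. The DR6 arrays lay above those of SOL and PS, whereas 1 DR1 array (-3.41) lay among those of DR6. The difference of 1.59 ± 0.58 between DR6 and SOL (adjusted p = 0.0363, limma) was lost without any 1 of the 3 DR6 arrays, SOL replicate 2 or SOL replicate 3. That call was also lost with the replicate number as a block or no filter on dim probes. The differences of 2.17 ± 0.58 at DR6 and 1.80 ± 0.54 at DR4 against DR1 had adjusted p = 0.00528 and 0.0120 (limma), the latter call being lost with only the 2 sites in the fit. The bound against PS was at least 2.07-fold at DR6, and that call was lost without any 1 of the 3 DR6 arrays or of PS replicates 1, 2 and 4. Quantile scaling, no filter on dim probes or the replicate number as a block also ended the call against PS.

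Among the beaded-filament and anchoring chains, Col6a3, the long chain of type VI collagen, was low at the stacks. It measured -2.72, -2.73, -2.62 and -2.80 at SOL, -4.15, -3.94, -4.14 and -4.93 at PS, -2.65, -2.71, -2.79 and -2.50 at DR1, -2.91, -2.92, -2.99 and -2.97 at DR4, and -3.52, -3.13 and -2.73 at DR6. The PS arrays were all below background and below each array of the other sites. Col6a3 was at least 2.70-fold lower at PS than at SOL (fitted difference -1.57 ± 0.17, adjusted p = 2.80e-06, limma), and at least 2.80-fold, 2.30-fold and 2.03-fold lower than at DR1, DR4 and DR6. The DR6 call against PS was lost without PS replicate 4 or DR6 replicate 3 and with median or quantile scaling. Col6a1 and Col6a2, the other chains of the type VI trimer, differed from SOL at PS by -0.09 and -0.43 (adjusted p = 0.661 and 0.0362) and were not called. The other 2 Col6a3 probes were above background on 0 of 19 arrays.

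Col7a1, the chain of anchoring fibrils below epithelia, measured -2.64, -2.71, -2.90 and -2.42 at SOL, -3.23, -2.88, -3.15 and -2.99 at PS, -2.13, -2.61, -2.52 and -2.48 at DR1, -2.52, -2.21, -2.45 and -2.80 at DR4, and -1.71, -1.75 and -1.99 at DR6. DR6 was the highest site with no overlap. Col7a1 was higher at DR6 than at PS by 1.24 ± 0.15 (2.37-fold, adjusted p = 3.77e-06, limma) and differed from SOL there by 0.85 ± 0.15 (adjusted p = 0.000183), short of 2-fold.

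Of the multiplexins and transmembrane chains, Col17a1, a transmembrane collagen of epithelial attachment sites, measured -3.59, -3.35, -3.72 and -3.44 at SOL, -4.74, -4.46, -4.72 and -4.93 at PS, -3.89, -4.55, -3.56 and -3.56 at DR1, -3.99, -3.91, -3.94 and -4.09 at DR4, and -3.50, -3.37 and -2.81 at DR6. PS was the lowest site, below background on all 4 arrays, and 1 DR1 array (-4.55) reached its range. SOL, DR1 and DR4 were each above background on 3 of 4 arrays. Col17a1 was at least 1.74-fold lower at PS than at SOL (fitted difference -1.19 ± 0.19, adjusted p = 0.000131, limma) and at least 2.14-fold lower than at DR6. Against DR1 and DR4 the bounds were 1.35-fold and 1.27-fold, and neither pair was called.

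Col18a1, the chain that carries endostatin and is made in large amounts by hepatocytes, had site means of 7.04 at SOL, 6.83 at PS, 6.60 at DR1, 6.71 at DR4 and 7.12 at DR6. Its largest difference from SOL was -0.43 ± 0.06 at DR1 (adjusted p = 1.36e-05, limma), and both of its measured probes gave the same sign at each site. Col15a1, its relative in basement membrane zones, differed from SOL by -0.56 to -0.28, Col13a1 by 0.35 to 0.75 and Col25a1 by 0.24 to 0.58. Col25a1 was above background on 0 SOL arrays and passed the filter through DR4 alone. None of these 4 was called in any pair.

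The proteoglycans divided into Lum and the rest. Lum (lumican), which binds and spaces fibrils of type I and III collagen, measured -2.40, -2.37, -2.46 and -2.61 at SOL and -2.50, -2.54, -2.39 and -2.50 at PS. It measured -0.90, -0.94, -0.79 and -0.85 at DR1, -1.68, -1.52, -1.56 and -1.63 at DR4, and -1.02, -1.05 and -1.02 at DR6. The stream arrays lay above those of SOL and PS with a wide gap, and DR4 was intermediate. Lum was 3.01-fold higher at DR1 (1.59 ± 0.06, adjusted p = 2.51e-12, limma) and 2.69-fold higher at DR6 (1.43 ± 0.06, adjusted p = 2.65e-11) than at SOL, and differed by 0.86 ± 0.06 at DR4 (adjusted p = 2.26e-09). SOL and PS differed by 0.02 (adjusted p = 0.806). No left-out array ended the DR1 or DR6 calls.

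Dcn (decorin), whose probe lies 54977 bases from that of Lum on chromosome 10 of mm8, differed from SOL by 0.29 at PS, -0.10 at DR1, -0.18 at DR4 and 0.22 at DR6. Bgn (biglycan), a close relative of decorin, differed by -0.66 ± 0.11 at DR1 (adjusted p = 0.000171, limma) and -0.50 ± 0.11 at DR4 (adjusted p = 0.00146), opposite in sign to Lum at both sites. Ogn differed by 0.02 to 0.48 and Prelp by -0.22 to 0.26. Dcn, Bgn, Ogn and Prelp were not called in any pair. Fmod (fibromodulin), a close relative of lumican, measured -5.35, -3.74, -3.63 and -3.71 at SOL, -3.80, -3.28, -3.38 and -2.91 at PS, -3.55, -3.53, -3.45 and -4.54 at DR1, -3.37, -3.63, -3.57 and -3.42 at DR4, and -2.66, -2.96 and -3.03 at DR6. The DR6 arrays lay above those of SOL but overlapped PS. The difference of 1.22 ± 0.35 between DR6 and SOL (adjusted p = 0.0103, limma) was lost without SOL replicate 1 and with only the 2 sites in the fit.

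**Figure D3:**
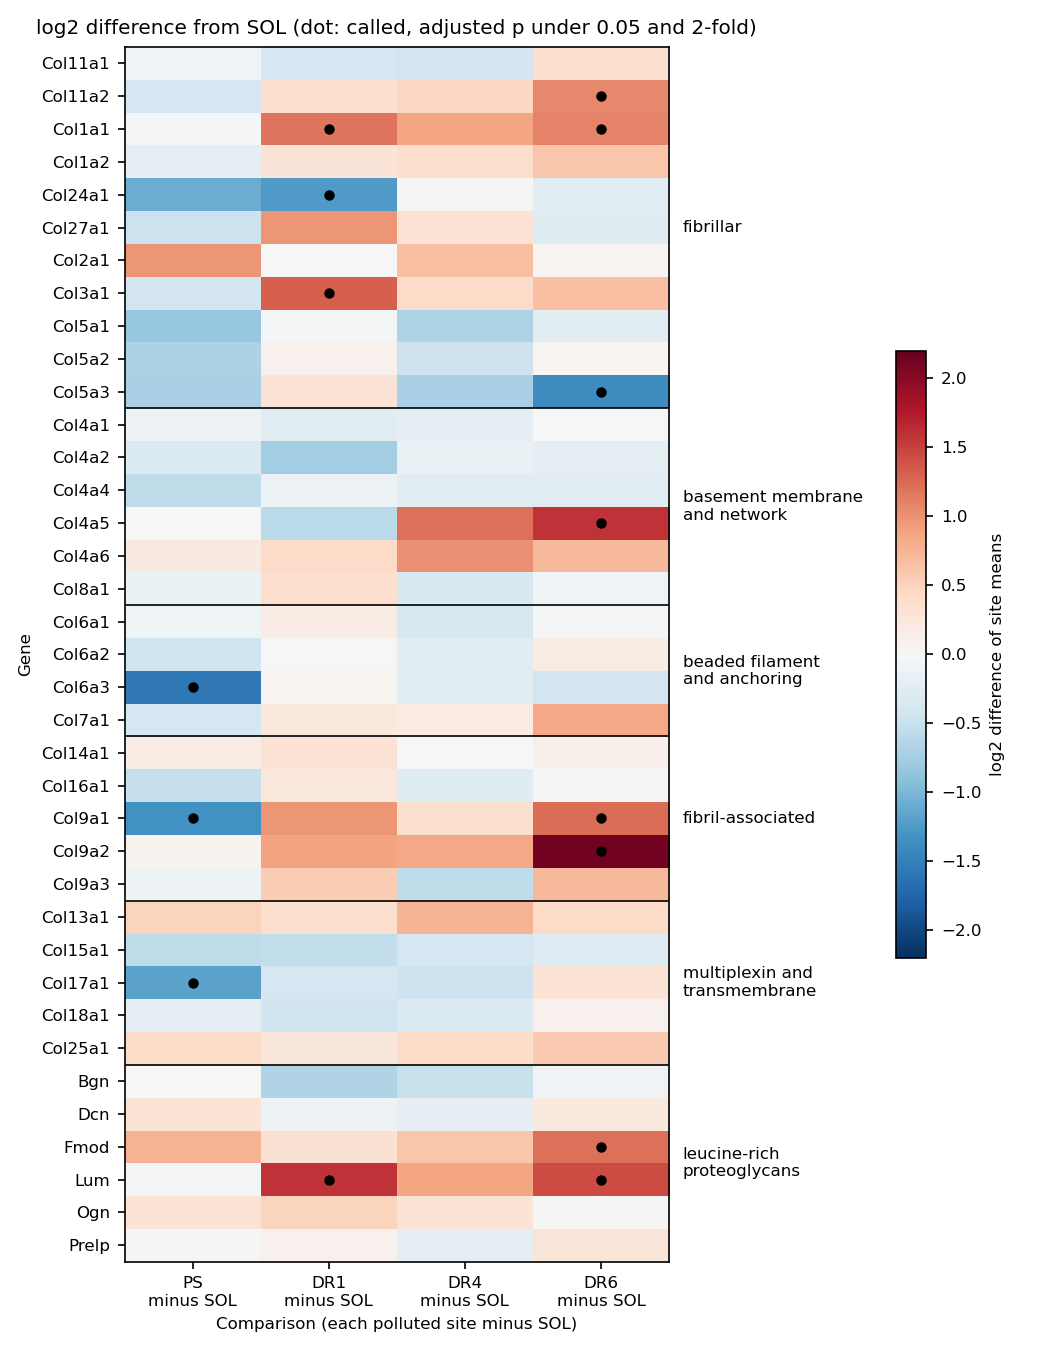
Difference of each of the 37 genes (rows, grouped by kind of chain) from SOL at the 4 polluted sites (columns), as the colour of the log2 difference of site means; a black dot marks a called difference. Called genes are 3 lower at PS, 3 higher and 1 lower at DR1, 0 at DR4, and 7 higher and 1 lower at DR6.

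With the pool of 9 mice as the unit, the design offers 5 values a gene. Comparing the 4 polluted pools with the SOL pool by limma on site means called 0 of the 37 genes and 0 of all genes, and an exact permutation of the pools cannot give a p below 0.2. At an unadjusted p under 0.05 there were 0 of the 37 and 4.07% of all genes. The split into 3 stream pools against SOL and PS was chosen after the values were seen. It also called 0 genes, with 8 of the 37 and 10.3% of all genes at an unadjusted p under 0.05. The stream difference was 1.06 ± 0.19 for Col1a1 (adjusted p = 0.231, limma) and 1.31 ± 0.26 for Lum (adjusted p = 0.288). Counted by array, 5 of the 37 genes (Col1a1, Col1a2, Col3a1, Col9a2 and Lum) had all 11 stream arrays above all 8 SOL and PS arrays, against 3.16% of all genes, and 0 had them all below, against 3.54%.

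For 9 of the 37 genes a second probe passed the filter. The probes gave the same sign at all 4 polluted sites relative to SOL for Col18a1 and Col27a1, and differed in sign at 1 or more sites for Col2a1, Col4a1, Col4a2, Col5a1, Col11a2, Col13a1 and Prelp. The second Col11a2 probe gave 0.70 at DR6 against the 1.06 of the probe used. The sign differed at 3 of the 4 sites for Col4a1 and at 2 for Col2a1 and Prelp. For Col2a1, the chain of cartilage fibrils, the gap between probes exceeded 1 on the log2 scale at PS and DR1. The probe used for Col2a1 gave differences from SOL of 0.97 at PS, -0.02 at DR1, 0.66 at DR4 and 0.04 at DR6, with 3 arrays missing because the scanner software marked the spot as an outlier (PS replicate 4, DR1 replicate 2 and DR4 replicate 4). The second probe gave -0.59, 1.33, 0.70 and 0.44, with an adjusted p of 6.87e-05 at DR1 (limma over all kept probes). It is printed in 10 spots, but was above background on 1 SOL and 0 PS arrays, so these differences are not measured folds. The 2 probes share 40 of their 60 bases. Their first 30 bases are printed here to show the overlap, with the bases found in both probes in capitals.
Col2a1 probe used (chr15:97804108-97804167, minus strand): ctcccgccttcccattattgACATCGCACC
Col2a1 second probe (chr15:97804088-97804147, minus strand): ACATCGCACCCATGGACATTGGAGGGGCTG
Col2a1 thus gave no settled order of the sites, and the probe used gave no call as reported. With median scaling it was called higher at PS than at SOL (1.06, adjusted p = 0.0127) and also without SOL replicate 1, SOL replicate 2 or PS replicate 1.

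**Figure D4:**
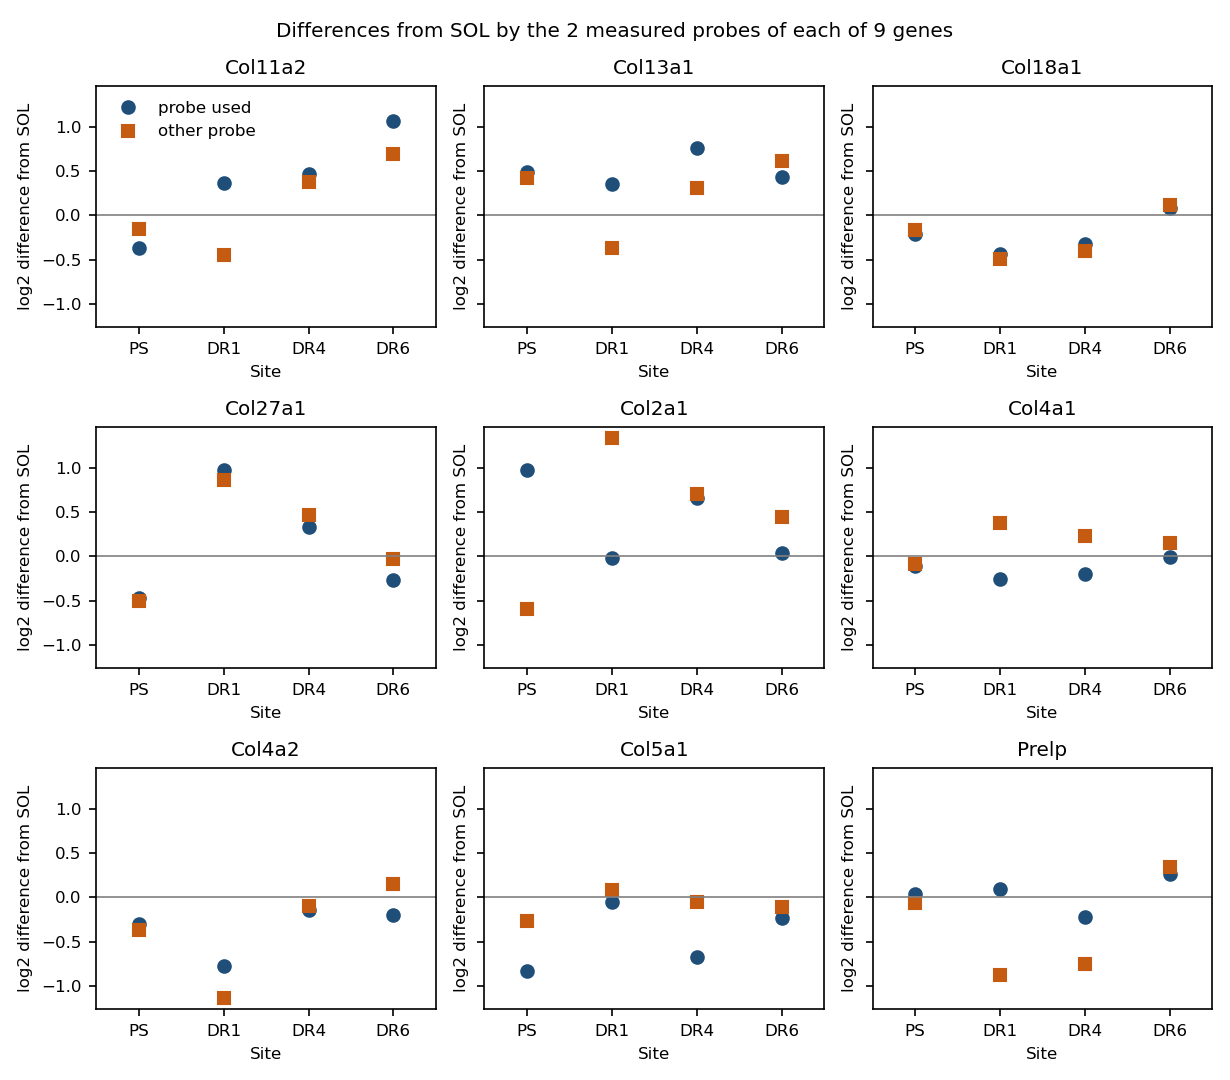
Difference from SOL (vertical axis, log2) at the 4 polluted sites (horizontal axis) by the 2 measured probes of each of 9 genes; circles are the probe used and squares the other probe. The probes nearly coincide for Col18a1 and Col27a1, and lie on opposite sides of 0 for Col2a1 at PS, where the other Col2a1 probe was not above background on any array.

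Genes that make, cut and bind collagen were listed with earlier results of these data known, so their counts are descriptive. Beside each list stands the share of all genes called against SOL: 4.42% at PS, 6.08% at DR1, 10.5% at DR4 and 6.95% at DR6. Of 17 measured genes of collagen modification and secretion, 1 was called against SOL: P4hb, the disulfide isomerase that is also a subunit of prolyl 4-hydroxylase, fell by 1.12 ± 0.10 at DR4 (adjusted p = 4.15e-08, limma). P4ha1 and P4ha2, the catalytic subunits, were not called, and P4ha2 differed by -0.70 at DR1. Of 11 measured genes of procollagen cleavage and cross-linking, 2 were called higher at DR1, 2 at DR4 and 1 at DR6. Lox, which cross-links collagen, was higher by 1.21 ± 0.34 at DR1, 1.45 ± 0.34 at DR4 and 1.69 ± 0.36 at DR6, and was above background on 1 of 4 SOL arrays. Pcolce2, an enhancer of procollagen cleavage, was above background on 0 SOL, 3 DR1 and 2 DR4 arrays. Its call at DR1 came to at least 1.01-fold higher, and for its call at DR4 no fold could be stated, while its relative Pcolce and the protease Bmp1 were not called, with differences of -0.75 and -0.89 at DR4.

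Of 22 measured matrix proteases and inhibitors, Mmp7 (matrilysin) was higher at each of the 4 polluted sites, by 1.66 at PS, 1.47 at DR1, 1.84 at DR4 and 2.08 ± 0.10 at DR6. Mmp15, a membrane-bound protease, fell by 1.22 at DR4 and fell by 1.02 at DR6. Mmp2, a gelatinase, and Mmp10 were not called. This list had 2 to 3 genes called in each comparison with SOL. That was 9.09% at PS and 13.6% at DR1, DR4 and DR6, beside 4.42%, 6.08%, 10.5% and 6.95% of all genes.

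Of 24 measured genes of TGF-beta, CTGF and PDGF signalling, 0 were called at PS, 2 at DR1, 1 at DR4 and 2 at DR6. These were 0%, 8.33%, 4.17% and 8.33% of the list, beside 4.42%, 6.08%, 10.5% and 6.95% of all genes. Tgfb1, the main profibrotic cytokine, differed from SOL by -0.15 to 0.18, and Tgfb2 by -0.16 to 0.34. Thbs1, an activator of latent TGF-beta, was at least 1.44-fold higher at DR1 and 1.56-fold at DR6, being below background at SOL. Skil, a repressor of the SMAD factors, was higher by 1.15 at DR4 and 1.06 at DR6, and Tgfbr3 at least 1.38-fold at DR1.

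Of 8 measured collagen receptors, Itga2, the alpha chain of a collagen-binding integrin, was higher by 1.77 ± 0.17 at DR4 and 1.67 ± 0.18 at DR6, and Itga1 and Itga11 were not called. Among 6 measured relatives of the proteoglycans, Omd (osteomodulin) was higher by 1.40 ± 0.24 at DR4, and Podnl1 and Chad were not called. Of 11 laminins and other basement membrane genes, Lamb3 was lower at PS, DR1 and DR4 (at least 1.47-fold, 1.5-fold and 1.71-fold) and Lama4 was lower at DR4 and DR6 (at least 1.86-fold and 1.39-fold), while Lama3 and Lama5 were not called. Of 23 elastic-fibre and adhesive glycoproteins, Comp, which binds type IX and fibrillar collagens in cartilage and tendon, was called higher at each polluted site. At DR1 it was higher by at least 3.72-fold (fitted difference 3.16 ± 0.26, adjusted p = 4.80e-08, limma). Comp was below background on all SOL arrays and above it on 4 of 4 arrays at DR1. The smaller fitted differences of 1.325 at PS, 1.711 at DR4 and 1.589 at DR6 are thus not measured folds. Spon2 fell by 1.67 at DR4 and fell by 1.16 at DR6 and Postn (periostin) was higher by 1.14 at PS, while Eln (elastin) and Fbn1 (fibrillin) were not called.

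Genes listed for the cells that make liver matrix were set beside these differences. Of 21 genes listed for hepatic stellate cells and fibroblasts, 20 were measured and 0 were called higher than at SOL at any site. At PS, DR1 and DR6, 1 was lower (5%), and at DR4 2 were (10%). The shares of all genes called were 4.42% at PS, 6.08% at DR1, 6.95% at DR6 and 10.5% at DR4. The summed signal of the 20 genes relative to the 75th percentile was 45.9 to 55.8 at SOL, 52.7 to 56.6 at PS, 46.3 to 69.3 at DR1, 45.8 to 53.4 at DR4 and 51.5 to 58.1 at DR6, which overlap. Tagln, with site means of 4.4 to 4.8, was the brightest of the list and weighs most in this sum. The gene called lower at all 4 sites was Cdh11, a cadherin of mesenchymal cells, which was at least 5.89-fold lower at PS and 6-fold at DR1, where no array was above background, and fell by 2.19 at DR4 and fell by 2.61 at DR6. The other was Ngfr, a neurotrophin receptor, which fell by 1.01 at DR4. The highest differences from SOL in the list were at DR1, 0.87 for Rgs5 and 0.60 for Vim, neither called. Of the stellate cell genes Acta2, Des and Pdgfrb, Acta2 differed from SOL by -0.55 to 0.02, Des by -0.35 to 0.55 and Pdgfrb by -0.32 to -0.21. The median difference of the list was -0.04 at PS, -0.04 at DR1, -0.33 at DR4 and 0.07 at DR6. In pooled liver RNA, fewer cells of a type and less RNA per cell cannot be told apart.

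Genes listed for other cell types also differed between sites, and the same shares of all genes stand beside their counts. Of 13 measured exocrine pancreas genes, 13 were lower at PS and 13 at DR4, 3 were lower at DR1 and 0 at DR6. The summed signal of the 11 with a value on every array was 835 to 911 at SOL, 199 to 201 at PS, 484 to 506 at DR1, 101 to 104 at DR4 and 1050 to 1080 at DR6. From high to low, the sum thus ran DR6, SOL, DR1, PS and DR4. The site means of Col1a1, Col3a1 and Lum ran DR1, DR6, DR4, SOL and PS. The 6 measured bile duct genes summed to 1.17 to 1.39 at SOL, 1.06 to 1.09 at PS, 1.66 to 1.72 at DR1, 1.39 to 1.82 at DR4 and 1.58 to 1.62 at DR6, with 1 called higher at DR4. The 2 adipocyte genes with a value on every array summed to 0.593 to 1.09 at SOL, 1.19 to 1.31 at PS, 2.10 to 2.42 at DR1, 1.09 to 1.28 at DR4 and 1.84 to 2.10 at DR6. Of these, Cfd (adipsin) was called higher at DR1 and DR6, by 1.36 and 1.11. The sum leaves out Fabp4, which was not called, and Cidec, a lipid droplet protein and the brightest of the 4 measured, which fell by 1.40 at DR1 and fell by 1.71 at DR4. The 10 muscle genes summed to 17.8 to 20 at SOL, 18.9 to 19.5 at PS, 21.4 to 24.4 at DR1, 13.2 to 14.1 at DR4 and 25.5 to 25.9 at DR6, with 1 called higher at each of PS, DR1 and DR4. Of 9 cartilage and bone genes, 1 was measured (Agc1, aggrecan), and its difference from SOL was -0.65 to -0.40. Col9a2 was called higher at DR6, and Comp, below background at SOL, at each polluted site. Of 12 hepatocyte genes, 10 were measured, with 1 called lower at PS. Their sums were 1720 to 2010 at SOL, 1560 to 1810 at PS, 1400 to 1690 at DR1, 1600 to 1720 at DR4 and 2050 to 2170 at DR6. Of the remaining lists, 13 endothelial genes had 0 calls against SOL, with sums of 35.3 to 36.6 at DR4 and 41.2 to 51.0 at the other sites. The 4 mesothelial genes had 1 lower at each stream site with sums of 19.7 to 29.1. Krt8, with site means of 4.381 to 4.636, was the brightest of these 4 and weighs most in that sum. The 4 kidney tubule genes had 3 higher at PS, 1 lower at DR4 and 1 higher at DR6. Their sums were 0.66 to 1.28 at SOL, 1.44 to 1.49 at PS, 0.608 to 0.744 at DR1, 0.369 to 0.503 at DR4 and 0.933 to 1 at DR6. Kap, below background at SOL, was at least 10.5-fold higher at PS. The 9 macrophage genes summed to 174 to 202 at SOL, 154 to 159 at PS, 154 to 167 at DR1, 89.5 to 100 at DR4 and 84.1 to 88.5 at DR6, with 0 higher at any site and 1 lower at PS, 1 at DR1, 3 at DR4 and 1 at DR6. Marco, a scavenger receptor of macrophages and the brightest of them, fell by 1.84 at DR4 and fell by 2.22 at DR6. The part of these lists in the differences of collagens and proteoglycans was not tested.

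**Figure D5:**
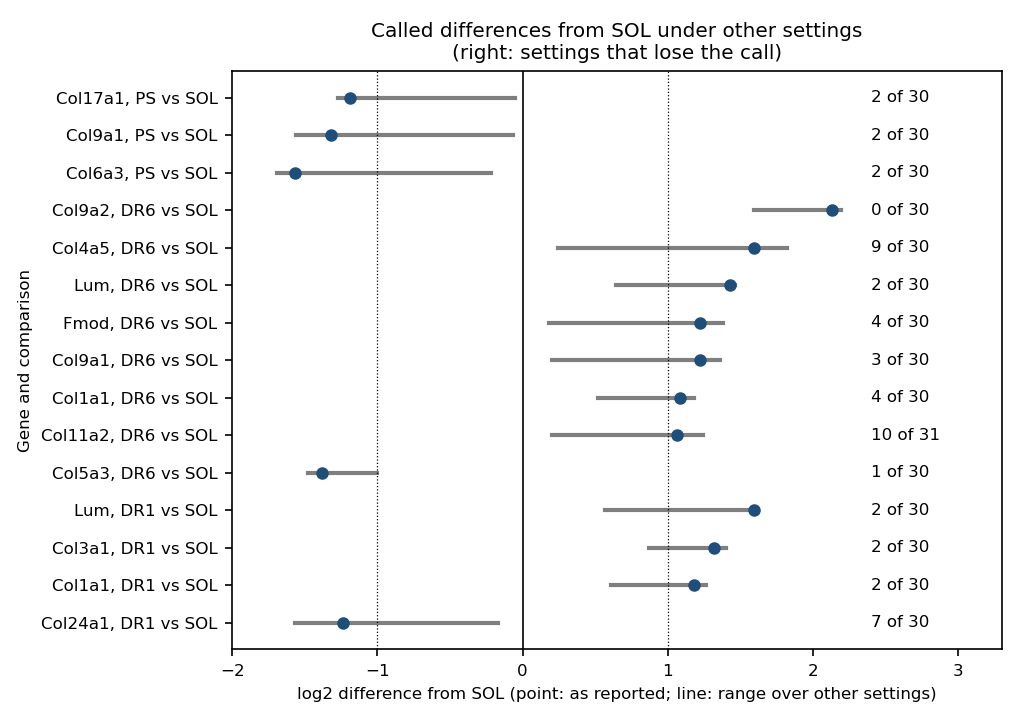
The 15 called differences from SOL (rows) as reported (points, log2) and their range over the other settings and left-out arrays (lines), with the number of settings that lose the call at the right; dotted lines mark 2-fold. Col9a2 at DR6 is called under all 30, while Col11a2, Col4a5 and Col24a1 lose the call under 10, 9 and 7.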

How the data were processed

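Liver RNA pools of 5 sites were hybridised in 1 colour (Cy3) to Agilent mouse arrays. Per the submitters' processing notes, the authors read the scans with Agilent Feature Extraction, version 9.5.3.1. The deposited files give, per the file headers, a processed signal per spot, an intensity in linear units after the scanner software's background correction, with flags for signal well above background, saturation and outlier spots. The deposited table of the series held the same intensity within 0.497%, and was used as an alternative.

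Levels are log2 of the processed signal minus the log2 of its 75th percentile on that array. Control spots (1639 of 45018) and outlier spots were left out, spots of a probe averaged, and probes kept when well above background on 3 or more arrays of a site (23458 of 41174). A gene's brightest kept probe was used. Names came from the mm8 annotation of the SOL files. DR1 files carry an older mm7 annotation, in which 5.84% of names differ, and supplied the probe sequences. A limma 3.58.1 fit (R 4.3.3) with a mean per site over 19 arrays gave 10 pairs of sites, with Benjamini-Hochberg adjustment over all genes. A gene missing some arrays was fitted on the rest. The fit was tested on simulated data. Per-array levels are given for Col1a1, Col3a1, Lum and other called genes that every array of the higher site measured above background, and pathway genes for up to 3 called and 2 uncalled genes a list, of which some are not reported here. The genes and lists were chosen with earlier results of these data known. Arrays of the same number were not paired in the main fit. Their deviations correlated over 0.1 in 16 of 36 pairs of arrays, with a median r of 0.0881 against -0.0342 for arrays of different number. Whether the number stands for a shared step was not tested.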

Additional observations from a re-analysis of the deposited data

Results flagged for a closer look

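Among the genes given with levels on all 19 arrays, 3 values stood apart from the other arrays of their site by Dixon's criterion. They came from 56 groups of 4 arrays examined, where chance alone gives about 1 in 20. The rest of the 37 genes were not examined in this way. Col1a1 at DR1 measured -0.13 on replicate 2, against -0.58 on the nearest other array. Without that array the DR1 call for Col1a1 against SOL was kept. Fmod at SOL measured -5.35 on replicate 1, against -3.74 on the nearest other array, and the call of Fmod at DR6 against SOL was lost without it. Fmod at DR1 measured -4.54 on replicate 4, against -3.55 on the nearest other array.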

How the results depend on the processing

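Of the 15 called differences from SOL, 0 changed sign under any of 11 alternative settings. The call was kept for 13 with median scaling, 14 with quantile scaling, 14 with no filter on dim probes, 15 with probes above background on all arrays of a site, 14 with the mean of a gene's probes, 15 with outlier spots kept, 15 with the deposited table and 13 with only the 2 sites in the fit. With normexp correction it was kept for 1 (quantile scaling) and 2 (75th percentile). The numbers of the 37 genes called with normexp and quantile scaling, and with normexp and the 75th percentile, were 0 and 0 for PS vs SOL, 0 and 0 for DR1 vs SOL, 1 and 2 for DR6 vs SOL, 1 and 1 for DR1 vs PS, 0 and 0 for DR4 vs PS, 1 and 1 for DR6 vs PS, 0 and 0 for DR4 vs DR1, 1 and 1 for DR6 vs DR1, and 1 and 1 for DR6 vs DR4. DR4 vs SOL had 1 with median and 1 with quantile scaling, DR4 vs DR1 had 1 with only the 2 sites in the fit, and DR6 vs DR4 had 1 with probes above background on all arrays of a site. Leaving out 1 array gave 3 to 5 for PS vs SOL, 3 to 7 for DR1 vs SOL, 0 to 2 for DR4 vs SOL, 5 to 8 for DR6 vs SOL, 6 to 8 for DR1 vs PS, 2 to 4 for DR4 vs PS, 7 to 10 for DR6 vs PS, 2 to 4 for DR4 vs DR1, 4 to 5 for DR6 vs DR1, 1 to 2 for DR6 vs DR4, and 0 to 0 with pools as units. With the replicate number as a block, 14 of the 15 calls were kept and Col4a5 at DR6 was lost. The labels tie such arrays by number alone, and 11 of 19 correlated best with an array of their own number, though most arrays had a different number. The array was designed for the house mouse, and the effect of Mus spretus sequence differences on the probes was not analysed here. Dim probes limit the comparisons of Col4a5, Col9a1, Col9a3, Col17a1, Col24a1 and Col25a1. They also limit those of Col6a3 and Col5a2 with PS and those of Fmod with SOL.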
